A study of Mus musculus with 10 samples.

Results

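Translation initiation and elongation factors were described in the subcutaneous white fat of F2 mice that carried opposite genotypes at Fob3a, an obesity locus on chromosome 15. Members were all genes whose symbol starts with Eif or Eef followed by a digit, apart from the repressors Eif4ebp1, Eif4ebp2 and Eif4ebp3 and the kinases Eif2ak2 and Eif2ak3. In the gene reference 81 genes met this rule, 66 of them protein coding, and 56 were read by a probe set with values on all 10 arrays and 1 annotated gene, of 19659 genes read that way. The 10 protein-coding genes not tested were Eef1akmt4, Eef1akmt4-ece2, Eef1g, Eif1, Eif2s1, Eif3g and Eif4g1, which had no probe set in the probe table, and Eif3j1, Eif3j2 and Eif4a1, whose probe sets had no value. The other 15 were pseudogenes or a noncoding RNA.

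FF mice were homozygous for the Fat-line allele at Fob3a and VV mice for the V-line allele, which some labels call the Lean-line allele, with 5 mice in each group. All 10 mice were untreated females of 14 weeks on chow, and the V line is a congenic line made by repeated backcrossing to the Fat line, so both groups share most of the Fat-line background. Inguinal-femoral fat of 1 animal was hybridised to each 1-colour array, and values are log2 intensities, normalised by the authors, of 1 probe set per gene. They compare a gene between mice, not 1 gene with another. The comparison, FF minus VV, asks how the genotype at Fob3a relates to expression. DEPTOR, which the submitters name in the title, binds and inhibits mTOR, and as background mTOR signalling acts on several of these proteins by phosphorylation.

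As background, translation of most messenger RNAs starts when the cap-binding protein eIF4E, the scaffold eIF4G and the helicase eIF4A load the small ribosomal subunit, which carries eIF3 and the initiator tRNA bound to eIF2 and GTP. eIF1 and eIF1A govern the choice of start codon, eIF5 and eIF5B lead to joining of the large subunit, and eIF2B recharges eIF2 with GTP. In elongation, eEF1A brings aminoacyl-tRNA to the ribosome and eEF2 moves the ribosome along by a codon. Phosphorylation of eIF2 by the kinases HRI, PKR, PERK and GCN2 blocks eIF2B, and phosphorylation of eEF2 by its kinase slows elongation. In adipocytes, insulin acts on these steps through mTORC1.

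No factor passed an adjusted p of 0.05 between FF and VV fat in limma, with adjustment over all genes. Of all 19659 genes, 0.753% passed, which is 148 genes, 0.621% being higher and 0.132% lower in FF. At an unadjusted p under 0.05, 7 of 56 members (12.5%) were counted, 6 higher and 1 lower in FF, against 16.4% of all genes, of which 10.2% were higher and 6.18% lower. The share among the members was thus not above that among all genes. The lowest adjusted p was 0.0834, for Eif2b4. FF and VV mice did not overlap for 2 members, Eif2b4 and Eif3d (3.57%), both higher in FF, while the share over all genes was 4.7%, with 3.36% higher and 1.34% lower in FF. The count of 0 members held in each fit that left out 1 mouse, and 5 to 8 members had an unadjusted p under 0.05 in those fits. The share of all genes at that p was counted only in the fit of all mice, here and below. Over all genes, dropping any mouse but VV replicate 1 moved the count of 148 by more than 1.5 times, down to 7 with VV replicate 2 dropped and up to 379 with FF replicate 3 dropped.

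The differences were small, and their intervals bound them. They ran from -0.36 for Eif3e to 0.29 for Eif4e3, with a median of 0.044 log2 units against 0.00081 over all genes. Among genes above the median of intensity, which hold 50 of the members, the median was 0.052 for the members and 0.022 for all genes. The median size of a difference, whatever its sign, was 0.062 among the members and 0.068 over all genes. In 35 of 56 members (62.5%) the difference was positive, against 50.3% of all genes. The 95% interval lay within 0.5 log2 units on either side of 0 for 55 members, all except Eif3e, and within 1.2-fold for 38. Over all genes those shares were 90.9% and 63.4%. Dropping 1 mouse gave a median of the members between 0.022 (VV replicate 4 dropped) and 0.044 (VV replicate 2 dropped), and it was more than 1.5 times smaller with FF replicate 2 (0.025), FF replicate 5 (0.024) or VV replicate 1 (0.028) dropped as well. After centring arrays on their median it was 0.081, where the median of all genes was 0.038.

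**Figure D1:**
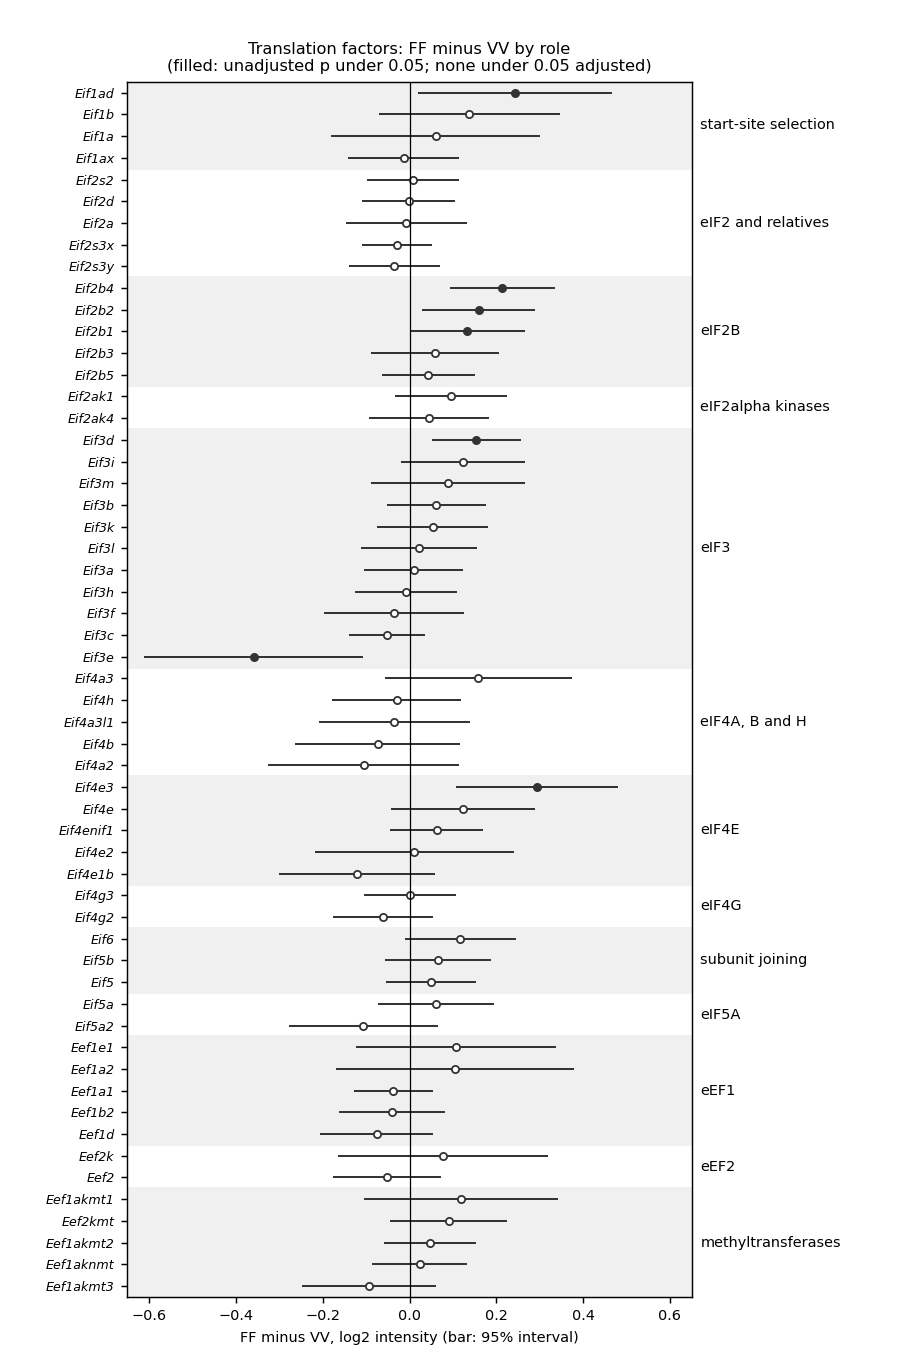
Difference FF minus VV in log2 intensity for each of the 56 factors, by role, with its 95% interval (5 FF and 5 VV mice); filled points have an unadjusted p under 0.05 and none passed an adjusted p of 0.05. All genes of eIF2B (5), of subunit joining (3) and of the eIF2 kinases among the members (2) lie to the right of 0, as do 62.5% of the members and 50.3% of all genes. Eif3e at -0.36 lies farthest to the left.

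Cells and tissues in the samples differed between mice. White adipocyte markers were high in every mouse: the 6 measured of 7 (Adipoq, Plin1, Lep, Fabp4, Lipe and Retn) had log2 intensities of at least 12.0. Of these, 4 were higher and 2 lower in FF, from Lep at -0.24 to Lipe at 0.12, and none passed the adjusted threshold. Their mean after centring each gene, which joins both signs, ran from -0.041 to 0.069 in FF and from -0.046 to 0.046 in VV mice. The same measure for 7 thermogenic adipocyte genes lay between 0.47 and 1.70 in FF and between -1.53 and -0.66 in VV mice. For 8 leukocyte genes it lay between -0.36 and -0.038 in FF and between 0.066 and 0.52 in VV mice, so both lists separated the groups. Skeletal muscle genes stood at 2.08 in FF replicate 1 and at most 0.34 in the other mice, and hepatocyte genes at 4.11 in VV replicate 1 and 0.82 in VV replicate 2, and at most -0.25 elsewhere. Without FF replicate 1 and VV replicate 1 the members had a median difference of 0.025 and none passed the threshold. Endothelial and mammary epithelial genes overlapped between the groups, with differences of -0.074 and -0.13. The part of these cells in the values of the translation factors was not tested, and in bulk tissue fewer cells of a type and less RNA per cell cannot be told apart.

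The eIF2B complex, which exchanges GDP for GTP on eIF2, had a positive difference in all 5 of its subunits, with a median of 0.13. Over all genes 50.3% were positive. The 3 genes of subunit joining and the 2 eIF2 kinases among the members were also all positive. Eif2b4 encodes the delta subunit. Its log2 intensities were 7.88, 7.87, 7.84, 7.94 and 7.87 in FF replicates 1 to 5, against 7.73, 7.76, 7.70, 7.50 and 7.64 in VV replicates 1 to 5. Every FF mouse lay above every VV mouse, and VV replicate 4 was the lowest. The means were 7.88 ± 0.035 in FF and 7.67 ± 0.10 in VV mice (SD over 5 mice in each group). The difference was 0.21 ± 0.053 (SE; limma adjusted p = 0.0834, two-sided exact permutation p = 0.00794, the smallest that 5 against 5 mice allow). That corresponds to 1.16-fold, with a 95% interval from 1.07 to 1.26. After centring arrays on their median the difference was 0.25 and the adjusted p 0.0404, the only alternative at a threshold of 0.05 in which any member passed; the adjusted p ran up to 0.221 over the alternatives.

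Eif2b2, the beta subunit, read 9.43, 9.39, 9.29, 9.33 and 9.33 in FF mice, against 9.24, 9.17, 9.34, 9.03 and 9.20 in VV mice. The groups overlapped through VV replicate 3. The difference was 0.16 ± 0.058 (adjusted p = 0.198). Eif2b1, the alpha subunit, read 9.23, 9.05, 9.02, 9.13 and 9.12 in FF mice and 9.03, 8.98, 9.11, 8.87 and 8.89 in VV mice, with a difference of 0.13 (adjusted p = 0.292). In both genes VV replicate 4 was the lowest and FF replicate 1 the highest of the 10 mice. Eif2b3, the gamma subunit, differed by 0.059 (95% interval -0.086 to 0.20) and Eif2b5, the catalytic epsilon subunit, by 0.044 (-0.062 to 0.15), so the subunit that carries the exchange activity had the smallest difference of the 5. Without VV replicate 4 all 5 differences were still positive, with a median of 0.11. The mean of the 5 subunits after centring each gene ran from -0.033 to 0.10 in FF and from -0.17 to 0.025 in VV mice, and FF replicate 3 was the only FF mouse within the VV range.

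The promoters of 4 eIF2B genes and of Eif3d are shown because Eif2b4, Eif3d and Eif2b2 had the 3 smallest unadjusted p-values among members with a RefSeq sequence, and Eif2b1 and Eif2b5 belong to the same complex as the first. Each stretch runs 5′ to 3′ from 100 bases before to 30 bases after the annotated start (RefSeq, build GRCm38.p6), and capitals mark CCGGAAGT or its reverse complement ACTTCCGG, which hold the GGAA core bound by transcription factors of the ETS family.
Eif2b4 (chr5:31193110-31193239, minus strand): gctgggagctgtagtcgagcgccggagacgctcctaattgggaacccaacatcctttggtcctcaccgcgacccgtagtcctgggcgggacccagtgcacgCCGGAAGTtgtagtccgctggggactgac
Eif2b2 (chr12:85219381-85219510, plus strand): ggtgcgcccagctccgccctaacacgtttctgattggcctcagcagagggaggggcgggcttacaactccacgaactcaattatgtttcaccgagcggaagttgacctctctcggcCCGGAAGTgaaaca
Eif2b1 (chr5:124579102-124579231, minus strand): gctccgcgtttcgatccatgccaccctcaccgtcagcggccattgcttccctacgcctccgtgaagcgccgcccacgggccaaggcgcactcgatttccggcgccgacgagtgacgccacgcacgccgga
Eif2b5 (chr16:20498717-20498846, plus strand): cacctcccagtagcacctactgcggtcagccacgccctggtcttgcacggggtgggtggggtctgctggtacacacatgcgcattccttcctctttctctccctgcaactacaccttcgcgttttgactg
Eif3d (chr15:77970795-77970924, minus strand): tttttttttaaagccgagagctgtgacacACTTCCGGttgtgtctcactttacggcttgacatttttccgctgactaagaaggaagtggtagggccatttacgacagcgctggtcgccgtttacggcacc
The motif stands just downstream of the start in Eif2b4 and Eif2b2, and upstream and on the opposite strand in Eif3d. These letters are not in the windows of Eif2b1 and Eif2b5. In windows of 300 bases, of which 250 lie before the start, 9 of 44 members with a sequence (20.5%) held it on either strand, against 4.31% of 27025 genes in the promoter table. That table also holds genes not measured here, and the share among measured or similarly expressed genes was not counted. The 9 members were Eef1b2, Eif2ak1, Eif2b2, Eif2b4, Eif3d, Eif3l, Eif4e2, Eif5a and Eif5a2. Their differences ran from -0.11 to 0.21 with a median of 0.061, and those of the other 35 had a median of 0.044. The motif was chosen with the values known, and a match is a description of the sequence.

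**Figure D2:**
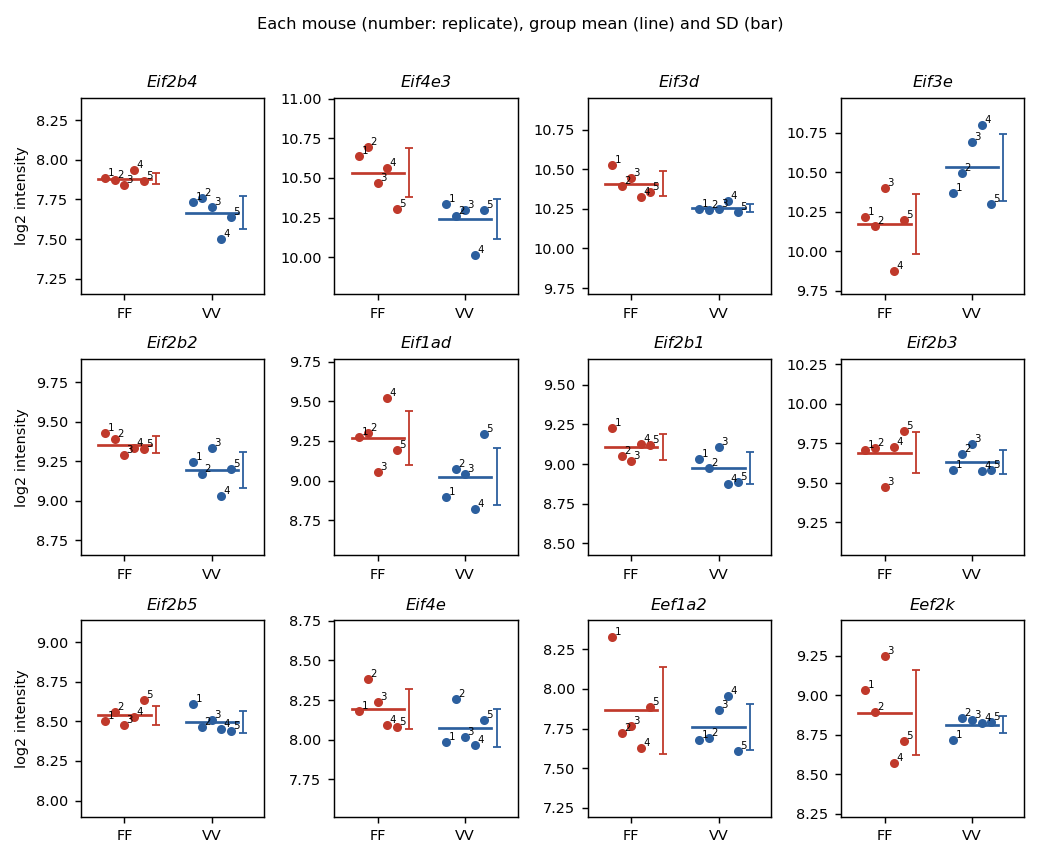
Log2 intensity of 12 factors in each mouse, FF left and VV right, with the replicate number beside each point, the group mean as a line and the SD as a bar; each panel spans the same range of log2 units. FF and VV mice do not overlap for Eif2b4 and Eif3d, and single mice stand apart in others, such as FF replicate 1 at 8.32 for Eef1a2.

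eIF2 itself had differences near 0. Eif2s2, the beta subunit, differed by 0.0078 (95% interval -0.096 to 0.11). Eif2s3x, the X-linked gene of the gamma subunit, had log2 intensities of 11.91, 11.96, 11.92, 11.95 and 11.97 in FF mice, against 11.93, 12.00, 11.97, 11.98 and 11.97 in VV mice. It varied least of all 56 members, with a range of 0.093 log2 units over the 10 mice, and its difference of -0.030 had an adjusted p of 0.730 and turned to 0.0071 after centring arrays on their median. Its Y-linked copy Eif2s3y, which females lack, read 4.19, 4.07, 4.09, 4.09 and 4.12 in FF and 4.22, 4.17, 4.21, 4.04 and 4.11 in VV mice. Those values show what that probe set reads when its gene is not in the genome. Eif2a and Eif2d, which encode proteins that can deliver initiator tRNA without eIF2, differed by -0.0072 and -0.0016.

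Of the kinases that phosphorylate eIF2, Eif2ak1, which encodes the haem-regulated kinase HRI, differed by 0.096 (adjusted p = 0.461). Its values in FF mice were 9.73, 9.73, 9.74, 9.77 and 9.77, against 9.76, 9.69, 9.61, 9.46 and 9.74 in VV mice. VV replicate 4 was the lowest, and the 5 FF mice lay close together beside the 2 highest VV mice. Eif2ak4, which encodes the amino acid sensor GCN2, differed by 0.045 (95% interval -0.092 to 0.18). The 2 kinases outside the rule, Eif2ak2 (PKR) and Eif2ak3 (PERK), differed by -0.14 and 0.064, with adjusted p of 0.517 and 0.666.

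eIF3, the largest initiation factor, is carried by the small ribosomal subunit, and 11 of its subunit genes were measured. Their median difference was 0.022, with 7 positive and 4 negative. Its subunits Eif3e and Eif3d, which both lie on chromosome 15, had the 2 smallest p-values of the complex and pointed in opposite directions. Eif3e read 10.22, 10.16, 10.40, 9.88 and 10.20 in FF replicates 1 to 5, against 10.37, 10.49, 10.69, 10.80 and 10.30 in VV replicates 1 to 5. FF replicate 4 was the lowest and VV replicate 4 the highest mouse, and the groups overlapped, since FF replicate 3 lay above VV replicates 1 and 5. The means were 10.17 ± 0.19 in FF and 10.53 ± 0.21 in VV mice (SD, n = 5 each), with a difference of -0.36 ± 0.11 (SE; adjusted p = 0.141, exact permutation p = 0.0238). That is the largest difference in size among the members, and Eif3e also had the widest range over the 10 mice, 0.92 log2 units. It ran from -0.42 to -0.29 over the 19 alternatives, without passing the threshold in any.

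Eif3d encodes a subunit that can itself bind the cap of some messenger RNAs. It read 10.53, 10.39, 10.44, 10.33 and 10.35 in FF mice, against 10.25, 10.24, 10.25, 10.30 and 10.23 in VV mice. The 5 VV mice lay close together and all below the lowest FF mouse, replicate 4. The difference was 0.15 ± 0.046 (adjusted p = 0.126, exact permutation p = 0.00794), which is 1.11-fold. Over the alternatives its adjusted p ran from 0.0503 to 0.274. Eif3i, a subunit of the eIF3 core, differed by 0.12 (adjusted p = 0.374). The other 8 subunits differed by -0.052 (Eif3c) to 0.089 (Eif3m), with Eif3k at 0.053. For the large scaffold subunits Eif3a, Eif3b and Eif3c the 95% intervals were -0.10 to 0.12, -0.049 to 0.17 and -0.14 to 0.034.

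Of the members, 6 lie on chromosome 15, the chromosome of Fob3a and Deptor. In order along the chromosome they are Eif3e and Eif3h before Deptor, and Eef1d, Eif3d, Eif3l and Eif4b after it. Eif3e stands 30 and Eif3h 15 measured genes before Deptor, and Eef1d, Eif3d, Eif3l and Eif4b stand 106, 173, 206 and 522 after it, of 741 measured on the chromosome. Deptor differed by 0.55 and passed the test over all genes, and none of the 6 did. Eif3h, the member nearest to Deptor, read 11.40, 11.48, 11.53, 11.46 and 11.52 in FF and 11.44, 11.48, 11.62, 11.51 and 11.37 in VV mice, with a difference of -0.0084 and a 95% interval from -0.12 to 0.11. Its sign turned without FF replicate 1 (0.011), without VV replicate 3 (0.026) and after centring arrays on their median (0.028). Of the other 3, Eef1d differed by -0.075, Eif3l by 0.022 and Eif4b by -0.073, with adjusted p of 0.570, 0.897 and 0.724, and in each the FF and VV mice overlapped. The measured genes on either side of Eif3e, Angpt1, Rspo2, Gm10373 and Emc2, differed by 0.35, 0.054, 0.076 and 0.084, all with the opposite sign to Eif3e and none past the threshold. Txn2, Foxred2, Cacng2 and Ift27 flank Eif3d and differed by 0.23, 0.10, -0.072 and 0.045. The median over the 6 members was -0.041, over the 50 others 0.048 and over all genes of the chromosome 0.0022. Sequence differences between the 2 alleles at these probe sets were not analysed here.

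**Figure D3:**
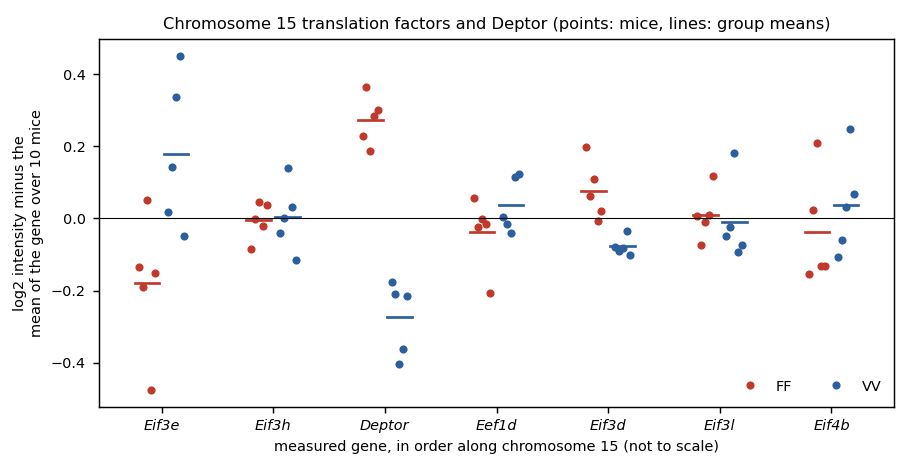
Log2 intensity minus the mean of each gene over the 10 mice for the 6 chromosome 15 members and Deptor, in their order along the chromosome; points are mice and lines are group means, FF left and VV right. FF lies wholly above VV for Deptor and Eif3d, mostly below VV for Eif3e, and the groups overlap in the other 4.

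Among the cap-binding factors, Eif4e3 had the largest positive difference of all members. It encodes a cap-binding relative of eIF4E. Its log2 intensities were 10.64, 10.70, 10.47, 10.56 and 10.31 in FF mice, against 10.33, 10.26, 10.30, 10.02 and 10.29 in VV mice. FF replicate 5 lay below VV replicate 1 and just above VV replicate 3, and VV replicate 4 was far below the rest. The means were 10.53 ± 0.15 in FF and 10.24 ± 0.13 in VV mice (SD over 5 mice in each group), and they differed by 0.29 ± 0.083 (SE; adjusted p = 0.113, exact permutation p = 0.0159) or 1.23-fold. Eif4e, which encodes the main cap-binding protein and target of the 4E-BP repressors, read 8.18, 8.38, 8.24, 8.09 and 8.08 in FF and 7.99, 8.25, 8.02, 7.97 and 8.13 in VV mice, with a difference of 0.12 (95% interval -0.040 to 0.29). On a second probe set Eif4e differed by 0.028. Eif4e2, a cap-binding protein that represses translation, differed by 0.011, and the oocyte form Eif4e1b by -0.12 (adjusted p = 0.506). Eif4enif1, which carries eIF4E into the nucleus, differed by 0.063 on the probe set used and by 0.0033 on a second probe set.

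The scaffold genes Eif4g2 and Eif4g3 differed by -0.061 and 0.00076. Eif4g2 encodes a relative of eIF4G that lacks the eIF4E-binding part. FF replicate 1, at 11.79, was below the other FF mice, which lay between 11.89 and 11.92, and VV mice lay between 11.83 and 12.08. Of the helicase eIF4A and its partners, Eif4a2, an RNA helicase, differed by -0.11 (95% interval -0.32 to 0.11), and Eif4a3, which encodes the helicase of the exon junction complex, by 0.16 (-0.054 to 0.37). Eif4b and Eif4h, which stimulate the helicase, differed by -0.073 and -0.030. The copy Eif4a3l1, on chromosome 6, differed by -0.035, and signals of close copies such as Eif4a3 and Eif4a3l1 may not be separable on the array.

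In start-codon selection, Eif1ad, a protein with an eIF1A-like domain placed here by its name, differed by 0.24 (adjusted p = 0.254). It read 9.28, 9.30, 9.05, 9.52 and 9.19 in FF and 8.90, 9.07, 9.04, 8.82 and 9.29 in VV mice, so that VV replicate 5 lay above FF replicates 1, 3 and 5. Eif1a, Eif1ax and Eif1b differed by 0.060, -0.013 and 0.14, with adjusted p of 0.516 or higher. In subunit joining, Eif6, which keeps the large subunit from joining too early, read 9.98, 10.07, 9.80, 9.97 and 10.06 in FF and 9.80, 9.87, 9.86, 9.95 and 9.82 in VV mice. Only FF replicate 3 lay below the highest VV mouse, and the difference was 0.12 (adjusted p = 0.340). Eif5, the GTPase-activating factor of eIF2, and Eif5b, the GTPase of joining, differed by 0.050 and 0.066.

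The 12 elongation factor members had differences of both signs, with a median of 0.035. None passed the adjusted threshold in limma or had an unadjusted p under 0.05, a p that 16.4% of all genes had. The median size of their differences, whatever the sign, was 0.076, against 0.061 for the initiation factors and 0.068 over all genes. Eef1a1, the main carrier of aminoacyl-tRNA, read 13.44, 13.49, 13.57, 13.51 and 13.46 in FF and 13.50, 13.51, 13.53, 13.60 and 13.51 in VV mice. The difference of -0.037 had a 95% interval from -0.13 to 0.052. Eef2, the translocation factor, read 12.69, 12.76, 12.82, 12.67 and 12.70 in FF and 12.75, 12.72, 12.78, 12.95 and 12.70 in VV mice, with a difference of -0.052 (-0.17 to 0.070). In both genes VV replicate 4 was the highest mouse. The exchange factor genes Eef1b2 and Eef1d differed by -0.040 and -0.075, and Eef1e1, whose product sits in the multi-tRNA-synthetase complex, by 0.11.

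The positive difference of Eef1a2, the form of eEF1A found in muscle and nerve, rested on 1 mouse. It read 8.32, 7.72, 7.77, 7.63 and 7.89 in FF mice, against 7.67, 7.69, 7.87, 7.96 and 7.61 in VV mice. FF replicate 1, which also had the highest level of skeletal muscle genes, was the highest of the 10, and the part of muscle in it was not tested. The difference was 0.10 with all mice and -0.011 without FF replicate 1. Eef2k, the calcium-regulated kinase that inhibits eEF2 and is held in check by mTORC1 signalling, had the largest ratio of FF to VV spread of the 56 members. It read 9.04, 8.89, 9.25, 8.57 and 8.71 in FF, against 8.72, 8.85, 8.84, 8.82 and 8.83 in VV mice. The SD was 0.27 in FF and 0.054 in VV mice, and the difference of 0.077 became -0.012 without FF replicate 3. Both probe sets of the gene gave that pattern, with SDs of 0.25 in FF and 0.044 in VV mice on the other one. Whether the spread differs between the groups was not tested.

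Factors that carry unusual modifications were also measured. eIF5A, which helps the ribosome through runs of proline, is the only protein known to hold hypusine. Eif5a differed by 0.061 on the probe set used (95% interval -0.071 to 0.19) and by -0.013 on a second probe set. Its paralogue Eif5a2 differed by -0.11 (adjusted p = 0.544). Dhps and Dohh, the 2 enzymes of hypusine synthesis, differed by 0.17 and 0.29, with adjusted p of 0.258 and 0.128. The methyltransferases of eEF1A, Eef1akmt1, Eef1akmt2, Eef1akmt3 and Eef1aknmt, differed by 0.12, 0.047, -0.094 and 0.023, and that of eEF2, Eef2kmt, by 0.090 (adjusted p = 0.507).

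Many messenger RNAs of the translation machinery begin with a C and a run of pyrimidines, the 5′ TOP element through which mTORC1 controls their translation. At the annotated start in RefSeq, a C followed by at least 4 pyrimidines was found for 2 of 44 members with a sequence (4.55%) and for 3.01% of all genes in the table. They are shown from 15 bases before to 15 bases after the start, with the run in capitals, because no other member matched.
Eif2s3x (chrX:94212637-94212666, minus strand): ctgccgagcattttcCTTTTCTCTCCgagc
Eif3f (chr7:108934400-108934429, plus strand): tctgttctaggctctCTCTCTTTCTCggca
Eif3f, an eIF3 subunit, differed by -0.036 (95% interval -0.20 to 0.12), and Eif2s3x by -0.030 as given above. An annotated start can lie some bases from the one used in fat, so no match says only that these letters do not stand at that base.

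One mouse stood apart across the family. VV replicate 4 had the lowest value of the 10 mice for 23 of 56 members (41.1%), against 16.8% of all genes, and the highest for 9 (16.1%, against 12.8%). Among the members at their lowest there were Eif2b1, Eif2b2, Eif2b4, Eif4e, Eif4e2, Eif4e3, Eif4a3, Eif1a, Eif1ad and Eif1b. Those at their highest were Eef1a1, Eef1akmt3, Eef2, Eif3c, Eif3e, Eif4a2, Eif4b, Eif4e1b and Eif4g2. FF replicate 2 and VV replicate 3 had the lowest value for no member. The mean of all members after centring each gene was -0.061 in VV replicate 4 and lay between -0.028 and 0.041 in the other 9 mice. The thermogenic score of VV replicate 4 was -1.53, the lowest of the 10 mice, and its leukocyte score 0.11. Their part in these values was not tested. Without VV replicate 4, 6 members had an unadjusted p under 0.05 in limma, and the lowest adjusted p was 0.130. In that fit 18 of all genes passed the adjusted threshold, and their share at the unadjusted p was not counted.

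**Figure D4:**
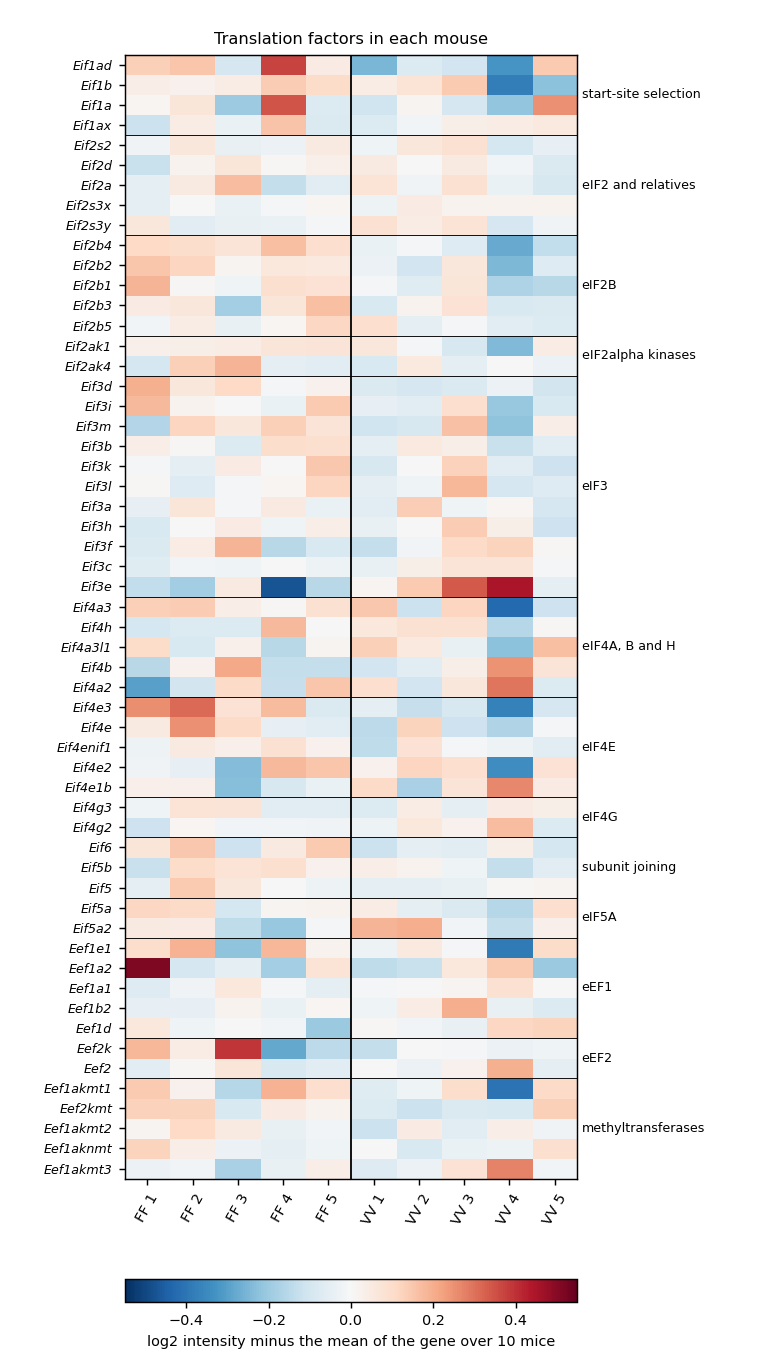
Log2 intensity of each factor in each mouse minus the mean of that factor over the 10 mice, by role, FF left and VV right of the black line (red above the mean, blue below). In the column of VV replicate 4, 23 members are at their lowest and 9 at their highest of the 10 mice.

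Other genes of translation gave a setting for these values, with the member Eef1aknmt counted again among the genes that modify factors. Of 84 measured of 92 related genes, none passed the threshold over all genes in limma, and 23 higher and 1 lower in FF had an unadjusted p under 0.05, which is 24 of 84, where 10.2% of all genes were higher and 6.18% lower at that p. Their median difference was 0.064, against 0.044 for the factors. The repressor gene Eif4ebp2, which binds eIF4E when mTORC1 is inactive, differed by 0.25 (adjusted p = 0.0742) and Eif4ebp1 by 0.049 (0.764). Of 13 measured kinases, phosphatase subunits and other regulators, none passed, and the smallest p-values were those of Rps6kb2, an S6 kinase, at 0.25 (adjusted p = 0.0547), Mknk2, which phosphorylates eIF4E, at 0.17 (0.0984) and Ppp1r15b, which directs dephosphorylation of eIF2, at 0.19 (0.120). Rps6kb2 and Gfm1 passed once FF replicate 3 was dropped, and Sephs2, a selenophosphate synthetase, once VV replicate 1 was, with or without FF replicate 1. After centring arrays on their median 6 of the 84 passed: Eif4ebp2, Gfm1, Gfm2, Gtpbp1, Mknk2 and Rps6kb2. Among genes above the median of intensity Eif4ebp2, Gfm1, Gfm2 and Rps6kb2 passed, with array weights Gfm1, Gfm2 and Rps6kb2, and among genes above the 25th percentile of intensity Rps6kb2. None passed in the other settings run at that threshold.

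All 10 measured factors of mitochondrial translation had a positive difference, as 50.3% of all genes did, with a median of 0.16. None passed the adjusted threshold, and 7 had an unadjusted p under 0.05, against 16.4% of all genes. That count was 4 with VV replicate 2 dropped and 5 to 7 with any other mouse dropped. Gfm1, the mitochondrial elongation factor that moves the ribosome as eEF2 does in the cytosol, read 9.08, 9.22, 8.95, 9.40 and 9.17 in FF mice, against 8.91, 8.72, 8.83, 8.59 and 8.89 in VV mice. The groups did not overlap, and the difference was 0.38 ± 0.088 (adjusted p = 0.0717), while that of Eef2 was -0.052. Gfm2, a mitochondrial recycling factor, differed by 0.27 (adjusted p = 0.0683), and Mtif2 and Mtif3, the mitochondrial initiation factors, by 0.13 and 0.21. The median of the list lay between 0.14 and 0.18 in the fits that left out 1 mouse. FF and VV mice overlapped for the genes of the list other than Gfm1 and Gfm2, where 4.7% of all genes did not overlap. No score per mouse was made for the list. Brown and beige adipocytes are rich in mitochondria. The score of the thermogenic genes was above that of every VV mouse in each FF mouse, and its part in these values was not tested. The difference between the mitochondrial list and the cytosolic factors was not tested either.

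Of 20 measured cytosolic tRNA synthetase and partner genes, 14 had a positive difference, against 50.3% of all genes, with a median of 0.075, and none passed. At an unadjusted p under 0.05 there were 6, against 16.4% of all genes, but 2 with FF replicate 1, VV replicate 1 or VV replicate 4 dropped, 3 with FF replicate 4 or FF replicate 5 dropped and 2 after quantile normalisation. Farsb and Farsa, the 2 subunits of the phenylalanine enzyme, differed by 0.15 and 0.17, with adjusted p of 0.164 and 0.214. The medians of the other lists were 0.053 for 11 partners at the cap and poly(A) tail, 0.0094 for 11 genes of termination and recycling, 0.049 for 10 genes that modify factors and 0.15 for 5 genes of selenocysteine insertion and other factors, and 0 of their genes passed. At an unadjusted p under 0.05 there were 0 of 11, 1 of 11, 2 of 10 and 2 of 5 in the same order, against 16.4% of all genes. The 13 kinases, phosphatase subunits and other regulators described above had a median of 0.058. Of these 5 had such a p, 4 higher and 1 lower in FF. The 4 measured repressors and eIF2 kinases outside the rule had a median of 0.056, and 1 had such a p. The genes that modify factors include Eef1aknmt, which is also a member.

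**Figure D5:**
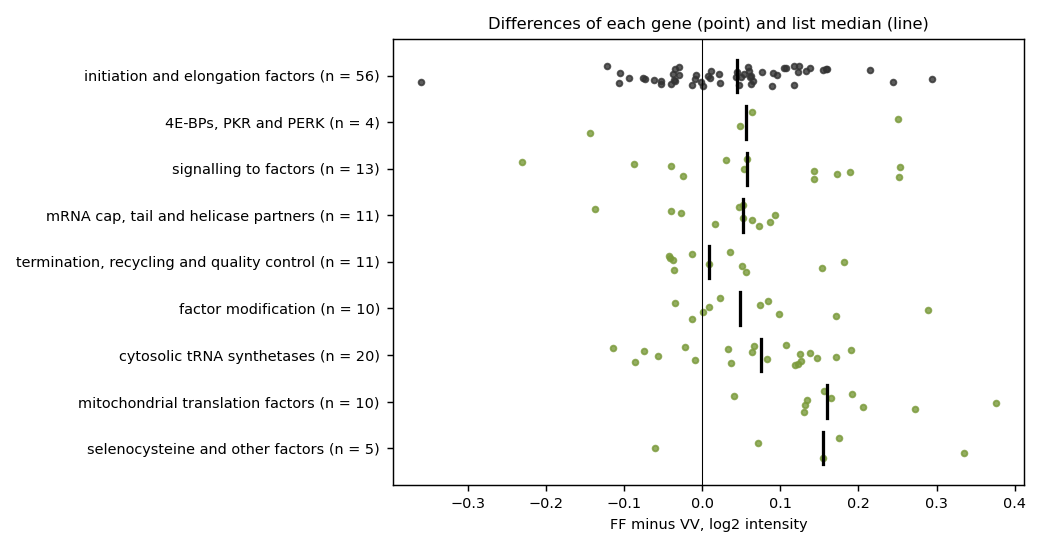
Difference FF minus VV in log2 intensity for each measured gene (points) of the 56 initiation and elongation factors, in the top row, and of 8 related lists, with the list median as a line. The factors centre on 0.044 and all 10 mitochondrial translation factors lie to the right of 0. Eef1aknmt is drawn both in the top row and in the list of factor modification.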

How the data were processed

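Gene expression was measured on 10 1-colour arrays of F2 mouse fat. The authors deposited log2 intensities made with RMA, per the submitters' processing notes. For its version, the genome build, scan dates and batches nothing is given in the sources used here. Of 35557 probe sets 25689 had 10 values and 9868 none. Of those with values 20777 named 1 gene, 232 several and 4680 none. The probe set with the highest mean stood for each gene, which left 19659 genes. Symbols came from a gene reference on GRCm38.p6. Values ran from 3.56 to 14.2, array medians from 7.15 to 7.17 in FF and from 7.18 to 7.21 in VV mice. Precision is limited by the number of arrays.

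The difference FF minus VV was tested two-sided with limma 3.58.1 in R 4.3.3, by lmFit and eBayes without covariates, adjusted by Benjamini-Hochberg over all genes at 0.05; permutation p-values are exact, two-sided and unadjusted, and were computed for all 56 members. Each array is a separate animal by its label. Mice were not paired by replicate number, since the labels used here do not say that the number pairs them. The deviations of same-numbered mice correlated between -0.26 and 0.10, and those of differently numbered mice between -0.26 and 0.24. With so few mice these correlations cannot settle whether some mice were paired. On simulated data of the same size, with independent noise, the fit recovered 79 of 100 genes with a shift of 0.5 log2 units and 99 of 100 with a shift of 1, while 7 of its 185 calls were false. Shifts as small as the differences of the members (-0.36 to 0.29) were not simulated, so recovery at that size is not known. Figures were drawn with matplotlib 3.10.9.

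The members, lists and named genes were chosen with earlier results of these data known. The rule named members by smallest p overall (12) and per role (2), by largest differences and by highest or lowest level (3 each), on chromosome 15, plus a fixed set and Deptor; others complete a complex or list. Alternatives are given in the closing section.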

Additional observations from a re-analysis of the deposited data

Results flagged for a closer look

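In groups of 5, a mouse was singled out where its gap to the nearest other mouse exceeded 0.71 of the range of its group. Among 72 groups of 36 named members this held for 7, and chance alone gives about 1 in 20. Low values in VV mice were those of Eif4e3 in VV replicate 4 (10.02, other VV mice 10.26 to 10.33), Eef1e1 in VV replicate 4 (8.91, others 9.27 to 9.40) and Eef2k in VV replicate 1 (8.72, others 8.82 to 8.85). High values in VV mice were those of Eef1a1 in VV replicate 4 (13.60, others 13.50 to 13.53), Eif3l in VV replicate 3 (11.00, others 10.73 to 10.80) and Eef2kmt in VV replicate 5 (8.79, others 8.54 to 8.58). In FF mice, Eif4g2 was low in FF replicate 1 (11.79, others 11.89 to 11.92). Of these 7 values, 3 were from VV replicate 4.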

How the results depend on the processing

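The count of 0 members past the threshold was the same under all alternatives except 2: it was 1 after centring arrays on their median and 1 at an adjusted p of 0.10, Eif2b4 in both, with an adjusted p of 0.0404 after centring. The median difference of the members was 0.081 after centring, 0.022 to 0.044 with 1 mouse left out and 0.033 after quantile normalisation. The count over all genes was 7 to 379 with 1 mouse left out, 28 without FF replicate 1 and VV replicate 1, 5 with the replicate number as a block, 601 after centring, 230 and 355 without genes below the 25th percentile and the median of intensity, 383 with array weights and 704 at an adjusted p of 0.10; of these calls 82.4% were higher in FF with all mice, 92.2% after centring and 100% with the block. The block pairs mice by a number only, and it left 0 members past the threshold. Of 678 refits of 36 named members, 654 kept sign and side of the threshold, 23 turned sign, none of them past it, and 1 passed. Sign turned after centring for Eif1ax (0.023), Eif2s3x (0.0071), Eif2s3y (0.0022), Eif3h (0.028) and Eif4a3l1 (0.0019); with array weights for Eif1ax (0.0066) and Eif3l (-0.0071); after quantile normalisation for Eif4g3 (-0.020); and without FF replicate 1 and VV replicate 1 for Eef1a2 (-0.032), Eif3h (0.00054) and Eif4g3 (-0.011). With 1 mouse left out, the differences ran over -0.011 to 0.16 for Eef1a2, -0.012 to 0.16 for Eef2k, -0.055 to 0.015 for Eif1ax, -0.038 to 0.026 for Eif3h, -0.0052 to 0.070 for Eif3l, -0.096 to 0.0024 for Eif4a3l1 and -0.018 to 0.016 for Eif4g3. The cause was not tested. Arrays have no depth, and signal over background was not used.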

Other observations

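For 5 members a second probe set named the same gene alone. Differences on the second were 0.15 for Eef2k, 0.040 for Eif3m, 0.028 for Eif4e, 0.0033 for Eif4enif1 and -0.013 for Eif5a, against 0.077, 0.089, 0.12, 0.063 and 0.061 on those used. A probe set that names both Eif5 and the small nucleolar RNA Snora28, and was left out for that reason, read 9.32, 9.71, 9.91, 9.18 and 9.50 in FF mice and 9.41, 9.40, 9.15, 9.43 and 8.84 in VV mice, and the groups overlapped.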
